A study of Mus musculus with 48 samples.

Results

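The complementarity determining region 3 (CDR3) of the T cell receptor beta chain varied in length from clone to clone, and the clones described here had a CDR3 of 11 or fewer residues as deposited. This stretch normally runs from the conserved cysteine of the V segment to the conserved phenylalanine of the J segment, and 722 of the short clones did not both start with cysteine and end with phenylalanine. Clones that differ in any CDR3 nucleotide, or in V or J usage, are kept apart. Of 744876 distinct clones in 48 libraries, 33466 (4.49%) had such a short CDR3, against 609515 (81.8%) with 12 to 15 residues and 101895 (13.7%) with 16 or more. Counted in each library on its own, short clones made 48130 of 959731 entries. The rule uses CDR3 length and no other measure.

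The libraries came from 4 female C57BL/6 mice aged 8 weeks (C57BL/6J in the study's methods), numbered 5 to 8, which carried subcutaneous tumors of Lewis lung carcinoma (LLC), a mouse lung tumor cell line, on both sides of the back. On day 13 each tumor was cut into 2 fragments, and CD4+ and CD8+ T cells were sorted from every fragment, which gave 16 libraries of each. CD4+ CD44hi and CD8+ CD44hi T cells were sorted from the draining lymph node (dLN) of each side, which gave 8 libraries of each. CD44hi marks antigen-experienced T cells, and this gate was applied to the dLN and not to the tumor, so in a comparison of tumor with dLN the tissue and the gate cannot be told apart. In all 4 groups, cells stained by an antibody against CD45.2 given into the blood, and cells with the lineage markers CD11b, B220, NK1.1 or Ly6G, were left out of the gate, and no group was free of tumor. The mouse was the replicate, with 4 tumor or 2 dLN libraries pooled for each mouse and subset.

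A beta chain gene is assembled in the thymus from a V, a D and a J segment, and enzymes trim the segment ends and add bases between them before they are joined. The CDR3 spans this junction and is the loop that lies over the peptide when the receptor binds a peptide on a major histocompatibility complex molecule. Junctions with much trimming and few added bases give short loops, and sequences close to the germline segments are known to recur in different individuals.

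The sequences below show how the short clones were put together. The first set holds the largest short clone of the tumors in each mouse, chosen as the short clone with the highest mean share of reads over both tumors. The letters are the CDR3 nucleotides from 5′ to 3′ as deposited, and capitals mark the bases between the assigned V end and J start, which include any D segment.
CD4, mouse 5, TRBV15 TRBJ2-4, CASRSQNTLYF: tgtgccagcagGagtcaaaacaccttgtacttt
CD4, mouse 6, TRBV15 TRBJ1-1, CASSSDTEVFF: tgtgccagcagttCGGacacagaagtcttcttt
CD4, mouse 7, TRBV14 TRBJ2-5, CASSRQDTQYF: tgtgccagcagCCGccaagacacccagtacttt
CD4, mouse 8, TRBV13-1 TRBJ2-4, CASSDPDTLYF: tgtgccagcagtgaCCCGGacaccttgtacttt
CD8, mouse 5, TRBV23 TRBJ2-7, CSSSQSGGS: tgctccagcagtcaatcGGGGGGGTCc
CD8, mouse 6, TRBV4 TRBJ2-1, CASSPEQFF: tgtgccagcagcCctgagcagttcttc
CD8, mouse 7, TRBV4 TRBJ2-7, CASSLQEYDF: tgtgccagcagctTACAGGAATACGacttc
CD8, mouse 8, TRBV26 TRBJ2-7, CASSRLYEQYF: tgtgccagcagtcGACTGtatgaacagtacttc

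Of these, 6 had 1 to 5 bases between V and J, and the clones of mouse 5 and mouse 7 in CD8 had 9 and 12. The TRBV23 clone of mouse 5 stood apart in another way. Only 1 of its CDR3 bases was assigned to the J segment, and its CDR3 did not end in phenylalanine.

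The second set holds short amino acid clones found in the tumors of all 4 mice. They are the 5 named shared clones whose nucleotide sequence was itself read in the tumors of 4 mice.
CD4, TRBV5 TRBJ1-1, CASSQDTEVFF: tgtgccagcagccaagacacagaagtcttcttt
CD4, TRBV13-2 TRBJ2-7, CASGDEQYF: tgtgccagcggtgatgaacagtacttc
CD4, TRBV13-2 TRBJ1-1, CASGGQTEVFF: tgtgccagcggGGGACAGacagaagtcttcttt
CD8, TRBV13-1 TRBJ2-7, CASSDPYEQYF: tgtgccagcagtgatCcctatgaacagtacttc
CD8, TRBV13-3 TRBJ2-7, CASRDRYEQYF: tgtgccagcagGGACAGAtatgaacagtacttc

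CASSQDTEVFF and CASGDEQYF had no base between V and J, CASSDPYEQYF had 1, and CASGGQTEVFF and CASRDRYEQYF had 7 each.

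Depth was set by the draw of reads described under the processing. Deposited totals ran from 326582 to 4840722 reads, and 131070 to 2035380 reads per library were kept, in which 3 reads made 0.000147% to 0.00229% of a library. A library held 176 to 2646 short clones, with the fewest in CD4 tumor libraries. A pair of CD8 dLN libraries from different mice, the left dLN of mouse 5 and the right dLN of mouse 8, had 1388 clones in common, 138 of them short, and these common clones took 6.26% and 10.3% of their reads. The other pairs of CD8 dLN libraries from different mice had 605 to 1200 clones in common, 74 to 158 of them short, which took 2.45% to 5.41% of reads. The largest short clone of CD8 dLN mouse 8, TRBV14 TRBJ2-5 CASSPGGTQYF, made 0.459% of its right dLN and 0.151% of the left dLN of mouse 5, and had 0 reads in the other 6 CD8 dLN libraries. The main CD8 dLN results are therefore also given without the clones common to that pair. In total 34 single values were compared by two-sided exact permutation tests, 11 of them (32.4%) had the smallest p that 4 against 4 mice allow, 0.0286, and each of these 11 had a Benjamini-Hochberg adjusted p of 0.0883 over the 34 tests. No single value thus passed 0.05 after adjustment.

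By distinct clones, short CDR3 clones were a small part of every repertoire. In CD8 tumors their share was 4.80%, 4.58%, 4.46% and 4.44% in mice 5 to 8. In the CD8 dLN it was 5.51%, 5.34%, 5.45% and 5.03%. Every CD8 tumor value lay below every CD8 dLN value, with means of 4.57% ± 0.17 and 5.33% ± 0.21 (SD, n = 4, exact p = 0.0286). Without the clones common to the dLN pair the tumor share was still lower by 0.74 percentage points than that of the dLN. In CD4 tumors the share was 4.69% ± 0.08 and in CD4 dLN 4.88% ± 0.24, and these overlapped (exact p = 0.171). Their difference of -0.19 points was -0.31 without mouse 6 and -0.0501 without mouse 8. The CD4 dLN share was lower than that of the CD8 dLN in 3 of 4 mice, with exact p = 0.0571. With a limit of 10 residues in place of 11, shares were 0.94% ± 0.09 in CD4 tumor, 0.95% ± 0.06 in CD4 dLN, 1.078% ± 0.037 in CD8 tumor and 1.17% ± 0.07 in CD8 dLN. The tumor and dLN values of CD8 then overlapped, and exact p was 0.0857.

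By reads the picture differed, and single clones carried large shares. In CD4 tumors short clones took 6.46%, 6.13%, 13.5% and 6.10% of reads in mice 5 to 8, and in the CD4 dLN 4.84%, 4.17%, 5.30% and 4.97%. The groups did not overlap, with means of 8.06% ± 3.66 and 4.82% ± 0.48 (SD, n = 4, exact p = 0.0286). Mouse 7 stood far above the other CD4 tumors, and without it the difference went from 3.24 to 1.57 percentage points. Without the largest short clone of each mouse and group the difference was 1.48 points, and exact p was 0.0571. In CD8 tumors short clones took 9.43%, 9.66%, 5.23% and 6.56% of reads, against 5.91%, 5.78%, 5.99% and 5.55% in the CD8 dLN. Mouse 7 had less in its tumors than in its dLN and the other mice had more, so that means of 7.72% ± 2.18 and 5.81% ± 0.19 did not differ beyond the spread between mice (exact p = 0.171). The difference of 1.92 points was 1.26 without mouse 6. Without the largest short clone the CD8 difference changed sign, to -0.99 points (exact p = 0.229). The dLN of CD4 had a lower read share than that of CD8 in 4 of 4 mice (exact p = 0.0286), also without the pair's common clones (a difference of -0.90 points).

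**Figure D1:**
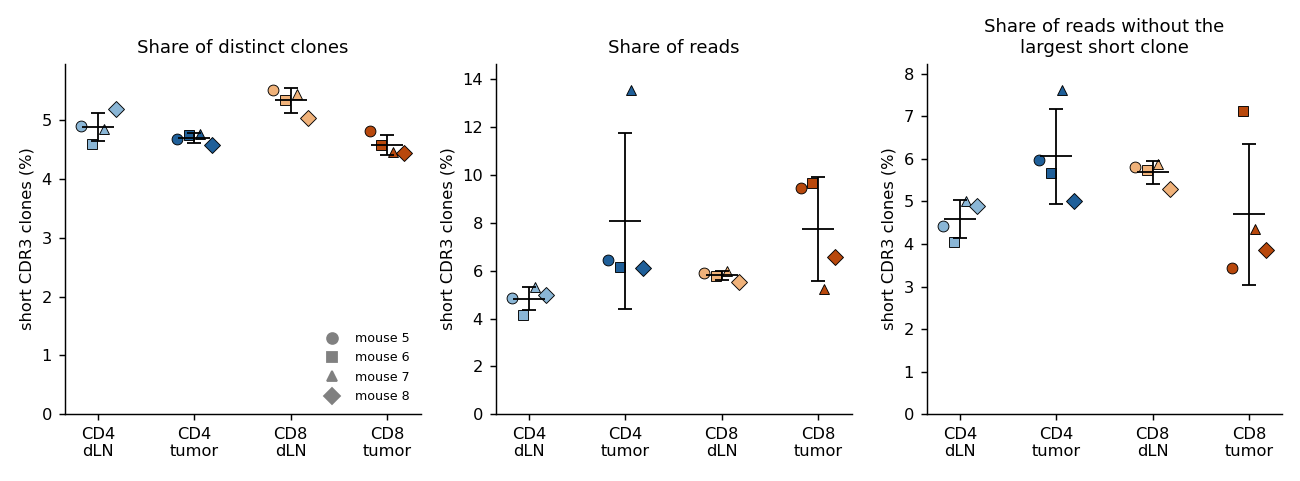
Share of clones with 11 or fewer CDR3 residues (%) by group, as distinct clones (left), as reads (middle) and as reads after the largest short clone of each mouse is left out (right), with 1 symbol per mouse and bars for the mean and SD of 4 mice. CD8 tumors lie below CD8 dLN by clones (4.57% against 5.33%), and CD4 tumor mouse 7 stands out by reads (13.5%).

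The excess of reads lay at different lengths in CD4 and CD8 tumors. Clones of 11 residues took 7.33% ± 3.64 of reads in CD4 tumors and 3.93% ± 0.43 in CD4 dLN, whereas in CD8 they took 3.25% ± 1.5 and 4.53% ± 0.11. In the CD4 tumors of mouse 7 a single clone of 11 residues, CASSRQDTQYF, made 6.42% of reads. Clones of 9 residues took 2.51% ± 2.76 of reads in CD8 tumors against 0.18% ± 0.08 in the CD8 dLN, and clones of 10 residues 1.89% ± 0.54 against 1.02% ± 0.07. With a limit of 10 residues, short clones took 8.36%, 5.53%, 1.74% and 2.25% of reads in the CD8 tumors of mice 5 to 8. In the CD8 dLN they took 1.31%, 1.24%, 1.38% and 1.18%. These groups did not overlap (exact p = 0.0286), but the separation rested on single clones. CSSSQSGGS, which does not end in phenylalanine, made 6.20% of the 8.36% in mouse 5, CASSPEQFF 2.74% of the 5.53% in mouse 6 and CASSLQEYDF 0.920% of the 1.74% in mouse 7. The first and second of these have 9 residues and carried most of the mean at that length. Without the largest clone of 10 or fewer residues in each mouse and group, CD8 tumors had 2.30%, 2.87%, 0.828% and 1.497% and CD8 dLN 1.22%, 1.18%, 1.36% and 1.12%, which overlapped (exact p = 0.286). In CD4 the limit of 10 residues gave 0.73% ± 0.13 in tumors and 0.89% ± 0.07 in dLN (exact p = 0.0857). Of distinct clones, those of 11 residues were 3.49% to 4.17% in the 4 group means and those of 12 residues, just outside the limit, 8.63% to 11.7%.

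The number of expanded short clones was small in every group. Clones above 0.1% of reads numbered 45 short of 590 in CD4 tumors over the 4 mice, 23 of 296 in CD8 tumors, 9 of 222 in CD4 dLN and 2 of 19 in CD8 dLN. Short clones above 1% numbered 4 of 13 in CD4 tumors, 3 of them in mouse 7, and 7 of 69 in CD8 tumors, 4 of them in mouse 6 and 0 in mouse 7. Of all distinct clones the short ones were 4.69% in CD4 tumors, 4.57% in CD8 tumors, 4.88% in CD4 dLN and 5.33% in CD8 dLN. In CD8 tumors 0.172% ± 0.049 of short clones exceeded 0.1% of reads, against 0.106% ± 0.035 of clones with 12 to 15 residues (exact p = 0.0857, higher in 4 of 4 mice). In CD4 tumors these values were 1.38% ± 1.05 and 0.833% ± 0.401 (exact p = 0.457). Mouse 5 stood apart for short clones, with 2.96% against 0.832% to 0.859% in the other mice, and without it the difference went from 0.54 to 0.19 percentage points. With a limit of 10 residues this CD4 tumor difference changed sign, to -0.58 points. Per clone, a short CD4 tumor clone had 84.5 ± 23.8 reads in every 1000000 and one of 12 to 15 residues 54.3 ± 20.9 (exact p = 0.143), and in the CD4 dLN the values were 37.97 ± 8.71 and 38.3 ± 7.5 (exact p = 0.971). CD8 tumors gave 26.7 ± 16.6 and 15.6 ± 7.3 (exact p = 0.314), and CD8 dLN 15.6 ± 1.2 and 14.4 ± 1.2 (exact p = 0.2). Short clones had more reads in 4 of 4 mice in each of these groups other than CD4 dLN. The difference within a mouse was 29.5, 13.5, 63.5 and 14.3 reads in CD4 tumors of mice 5 to 8, 22.4, 15.3, 0.859 and 5.99 in CD8 tumors and 1.25 ± 0.12 (SD) in CD8 dLN. Without mouse 7 the CD4 tumor mean went from 30.2 to 19.1 reads, and without mouse 5 the CD8 tumor mean from 11.1 to 7.40. With a limit of 10 residues the CD4 tumor difference changed sign, to -12.59 reads. The 10 largest short clones held 41.8% to 75.6% of short reads in CD4 tumors and 59.4% to 90.9% in CD8 tumors, but 3.39% to 8.21% in CD8 dLN.

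The clones behind these shares were followed through the libraries of their own mouse. TRBV14 TRBJ2-5 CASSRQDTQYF was the largest of all clones in the CD4 tumors of mouse 7. The left fragments had it at 5.65% and 7.05% of reads and the right ones at 7.74% and 5.16%. The left dLN of that mouse had 0.313% and the right dLN 0.172%. All 4 tumor fragments exceeded both dLN libraries, and this clone alone held 47.3% of the short reads of those tumors. It was also read in the tumors of 1 other mouse, at 0.00136%.

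TRBV23 TRBJ2-7 CSSSQSGGS ranked 5 among all clones in the CD8 tumors of mouse 5, with 7.25%, 6.06%, 5.91% and 5.37% of reads in the 4 fragments. Its left dLN gave 0.145% and its right dLN 0.0107%. It held 65.1% of the short reads in those tumors, and no other mouse had it in the tumor. This is the clone whose CDR3 did not end in phenylalanine. Clones whose CDR3 did not run from cysteine to phenylalanine were 1.55% ± 0.12 of distinct short clones in CD8 tumors and 0.399% ± 0.030 of those with 12 to 15 residues. Leaving all such clones out brought the CD8 tumor and dLN difference in read share from 1.92 to 0.46 percentage points.

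The largest short clones of the other CD8 tumors made smaller shares of the reads. TRBV4 TRBJ2-1 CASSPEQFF made 2.91%, 2.90%, 2.42% and 2.55% of reads in the fragments of mouse 6, and it was also the largest short clone of that mouse's CD8 dLN, at 0.0359% and 0.0858%. TRBV26 TRBJ2-7 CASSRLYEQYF made 3.54%, 2.59%, 3.30% and 2.20% in mouse 8, with 0.00463% in the right dLN and 0 reads in the left, which allows up to 0.000767%. TRBV4 TRBJ2-7 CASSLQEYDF of mouse 7 ran from 0.419% to 1.43%. In the CD4 tumors of mouse 8, TRBV13-1 TRBJ2-4 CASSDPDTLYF made 0.940% to 1.34% and ranked 2 among all clones. TRBV15 TRBJ2-4 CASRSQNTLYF in mouse 5 (0.425% to 0.571%) and TRBV15 TRBJ1-1 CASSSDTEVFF in mouse 6 (0.375% to 0.605%) were smaller still.

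**Figure D2:**
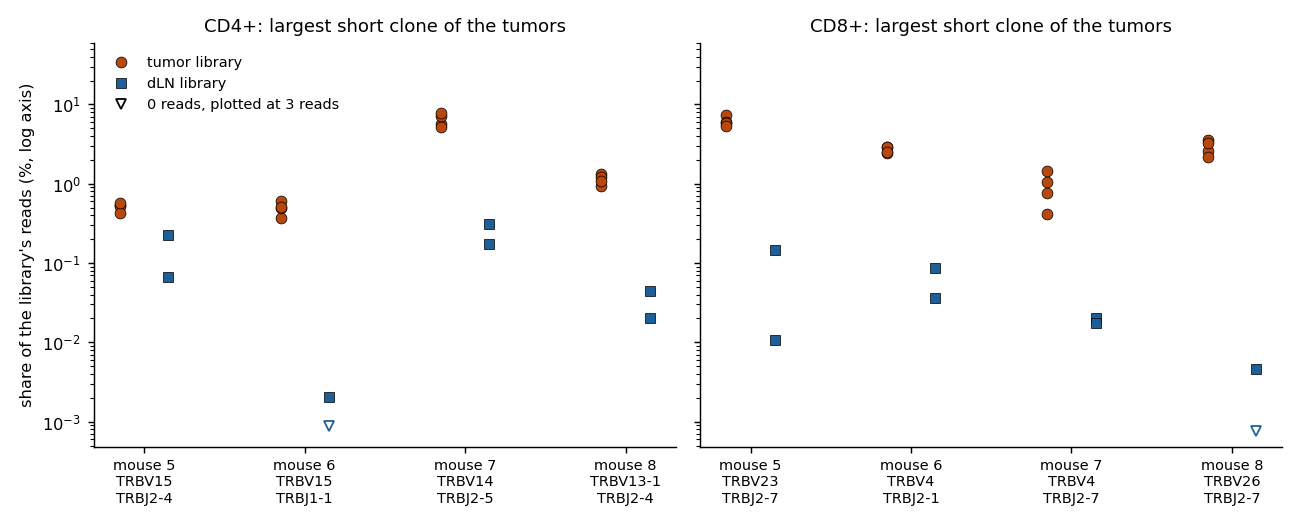
Share of the library's reads (%, log axis) of the largest short tumor clone of each mouse, in its 4 tumor libraries (circles) and 2 dLN libraries (squares), for CD4 (left) and CD8 (right). In each mouse all tumor libraries lie above both dLN libraries, and open triangles mark libraries with 0 reads, plotted at 3 reads.

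These clones had been chosen for their tumor share, so their lower level in the dLN is a description. The largest short clones of the dLN, chosen there, were not all lower in the tumor. TRBV1 TRBJ2-5 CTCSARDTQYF, the largest short clone of the CD4 dLN of mouse 7 with 0.330% and 0.296%, made 1.42% to 1.78% of reads in that mouse's tumors. TRBV26 TRBJ2-7 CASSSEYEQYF made 0.457% and 0.409% of the CD4 dLN of mouse 5 and 0.130% to 0.217% of its tumors. TRBV20 TRBJ2-2 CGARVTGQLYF ranked first in the CD8 dLN of mouse 7, at 0.222% and 0.0554% of the left and right dLN, and made 0.0443% to 0.0754% of its tumors.

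Most short reads of a tumor belonged to clones that were present on both sides of the body. Overlap was the geometric mean of the shares of reads of each side that belonged to clones found on the other. In CD8 tumors it was 92.7%, 93.1%, 76.8% and 91.3% for short clones in mice 5 to 8, and 84.9%, 86.4%, 74.2% and 87.4% for clones of 12 to 15 residues. Short clones were higher in 4 of 4 mice, but the groups overlapped (exact p = 0.371). CD4 tumors gave 89.8% ± 4.2 and 84.8% ± 2.6 (exact p = 0.0857), and short clones were higher in 4 of 4 mice, by 4.99 ± 1.69 percentage points. In the CD8 dLN overlap was far lower, at 15.9%, 17.8%, 17.97% and 14.8% for short clones against 9.05%, 10.8%, 9.38% and 8.88% for the longer ones. These did not overlap (means of 16.6% ± 1.5 and 9.54% ± 0.89, exact p = 0.0286). In the CD4 dLN short clones gave 44.0% ± 6.1 and the longer ones 47.8% ± 1.9 (exact p = 0.314), and their difference of -3.78 points was -1.82 without mouse 6 and -5.93 without mouse 7. Of short reads in tumors, 84.9% ± 11.6 in CD8 and 78.6% ± 9.1 in CD4 belonged to clones also read in a dLN of the same mouse, against 72.6% ± 12.7 and 70.7% ± 2.2 for the longer clones (exact p = 0.229 and 0.114). The groups overlapped, but within each CD8 mouse the short clones were higher, by 10.3, 14.1, 13.9 and 10.96 percentage points in mice 5 to 8 (12.3 ± 2.0, SD). Both this share and the overlap count reads, so single clones weigh heavily in them. The largest short clone held 65.1%, 28.3%, 17.6% and 43.1% of short CD8 tumor reads in these mice, and each was also read in a dLN. In CD4 they were higher in 3 of 4 mice, by 7.88 ± 8.22 points, and by 4.37 points without mouse 7. Without the common clones of the dLN pair the CD8 dLN difference in overlap went from 7.08 to 6.28 percentage points. With a limit of 10 residues the CD4 tumor difference in overlap changed sign, to -5.72 points, and that in tumor reads found in a dLN to -7.896 points.

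Short clones were found in other mice more often than clones of 12 to 15 residues. A clone shared between mice counts in the value of each of them. The 4 values of a class are thus not fully independent, which the exact tests here do not take into account. In the CD8 dLN 17.7%, 16.5%, 15.8% and 16.4% of short clones in mice 5 to 8 were also read, with the same nucleotides, in the CD8 dLN of another mouse. For clones of 12 to 15 residues it was 9.75%, 8.69%, 8.32% and 8.88%. The groups did not overlap, with means of 16.6% ± 0.8 and 8.91% ± 0.60 (exact p = 0.0286), and without the pair's common clones the difference went from 7.69 to 7.25 percentage points. In CD4 dLN the means were 9.45% ± 0.19 and 4.74% ± 0.32, and in CD4 tumors 7.93% ± 1.63 and 3.85% ± 0.40, again without overlap of groups (exact p = 0.0286 in each). CD8 tumors gave 16.03%, 14.9%, 10.5% and 14.01% against 10.8%, 9.47%, 6.40% and 8.82%. Short clones were higher in 4 of 4 mice there, with overlap of the groups (exact p = 0.0571). By amino acid sequence, sharing was 29.3% ± 0.8 against 22.4% ± 1.0 in CD8 dLN, 26.8% ± 4.1 against 22.3% ± 4.2 in CD8 tumors, 19.8% ± 0.9 against 14.99% ± 0.92 in CD4 dLN and 17.8% ± 3.1 against 12.2% ± 1.6 in CD4 tumors. The amino acid difference had exact p = 0.0286 in the groups other than CD8 tumor, where exact p was 0.2. Within the CD8 tumors of each mouse short clones were higher by amino acids too, in 4 of 4 mice and by 4.45 ± 0.53 percentage points. With a limit of 10 residues it shrank to between -0.31 and 1.66 percentage points, and no group reached 0.05.

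By nucleotides, sharing was highest at 10 and 11 residues among the lengths with at least 20 clones in every mouse. In the CD8 dLN 17.5% ± 1.3 of clones with 10 residues, 16.9% ± 0.7 with 11, 12.3% ± 0.9 with 12, 9.34% ± 0.57 with 14 and 5.56% ± 0.51 with 15 were found in another mouse. At 9 residues it was 8.99% ± 1.49 and at 8 residues 10.7% ± 4.6. In CD4 tumors 10 and 11 residues each gave 8.20%, and 12 residues 5.94% ± 0.70. The values at neighbouring lengths 10 and 11 did not differ beyond their spread in any group.

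**Figure D3:**
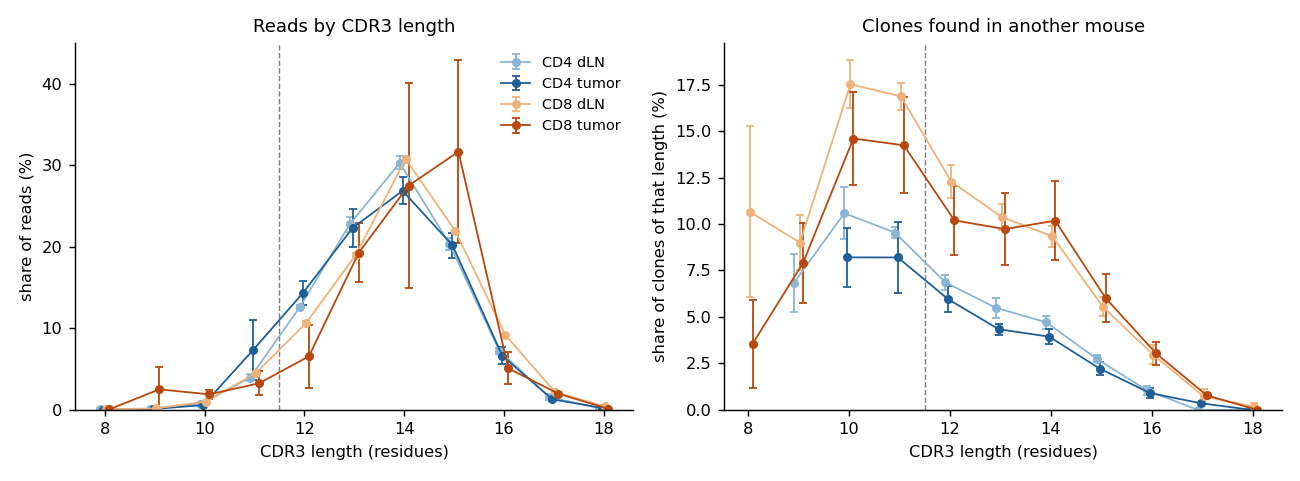
Share of reads (%, left) and share of the clones of one length that were also read in another mouse of the same group (%, right) against CDR3 length in residues, as means with SD of 4 mice, with a dashed line between 11 and 12 residues. Sharing is highest at 10 and 11 residues in each group (17.5% and 16.9% in the CD8 dLN).

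Counted over mice, 71 of 13536 distinct short clones of the CD8 dLN were present in all 4 mice by nucleotides (0.525%), against 322 of 219348 with 12 to 15 residues (0.147%). In CD8 tumors it was 35 of 13657 (0.256%) against 313 of 252792 (0.124%). In CD4 tumors it was 5 of 3718 (0.134%) against 15 of 66847 (0.0224%). TRBV5 TRBJ1-1 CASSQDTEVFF made 0.0250%, 0.0211%, 0.0163% and 0.0238% of the CD4 tumors of mice 5 to 8, from 4 nucleotide sequences, and was in the CD4 dLN of all 4 mice. TRBV13-2 TRBJ2-7 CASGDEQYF made 0.00533% to 0.0174% of the CD4 tumors. TRBV19 TRBJ2-7 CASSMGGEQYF made 0.118% of the CD8 tumors of mouse 8 and 0.000222% to 0.000636% of those of the other mice. It was in all 4 mice by amino acids, and the nucleotide sequence chosen for it was read in the tumors of 3 mice. TRBV4 TRBJ1-1 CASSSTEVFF was at 0.0273% and 0.0284% in the CD8 tumors of mice 5 and 6 and at 0.00191% and 0.00236% in mice 7 and 8. TRBV13-2 TRBJ2-7 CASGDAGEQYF was written by 13 nucleotide sequences, the most of the named ones. Across all short clones of the CD8 dLN there were 1.12 ± 0.01 nucleotide sequences per amino acid clone and mouse, against 1.09 ± 0.01 for 12 to 15 residues (exact p = 0.0286), and the other groups overlapped. With a limit of 10 residues the CD8 dLN difference changed sign, to -0.00292 (exact p = 0.629).

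The junctions of short clones held fewer bases of every origin. In CD8 tumors a short clone kept 12.5 ± 0.04 V bases and 14.5 ± 0.06 J bases on average, with 5.13 ± 0.08 bases between them. Clones of 12 to 15 residues kept 13.5 ± 0.02 and 18.3 ± 0.02, with 9.70 ± 0.06 between. Length fixes the sum of these parts, so their smaller size is a description. A D segment was called in 36.1% ± 0.9 of short clones and in 79.0% ± 0.3 of the others in CD8 tumors, and in 30.7% ± 0.8 and 75.1% ± 0.3 in CD4 tumors. Bases between V and J were absent in 7.49% ± 0.40 of short CD8 tumor clones and 9.00% ± 1.19 of short CD4 tumor clones, against 0.492% ± 0.045 and 0.790% ± 0.087. The start CASS, which most V segments encode, was carried by 57.6% ± 1.1 of short and 74.2% ± 0.1 of longer CD8 tumor clones. An inner cysteine was found in 3.17% ± 0.14 of short clones and 5.77% ± 0.28 of longer ones in the CD8 dLN, and in 6.88% ± 0.42 and 7.50% ± 0.20 in the CD4 dLN.

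Sharing was also set side by side at the same number of bases between V and J. With 0 to 2 such bases, 32.7% ± 1.0 of short and 29.6% ± 1.5 of longer CD8 dLN clones were found in another mouse. With 3 to 5 bases it was 16.7% ± 0.7 and 17.4% ± 1.0, with 6 to 8 bases 10.1% ± 1.2 and 11.1% ± 0.7, and with 9 to 11 bases 2.56% ± 0.53 and 6.97% ± 0.45. In CD4 dLN the values were 23.1% ± 0.6 and 21.3% ± 1.2 at 0 to 2 bases and 6.14% ± 0.69 and 9.59% ± 0.73 at 3 to 5 bases. In each group the mean of short clones was above that of longer ones at 0 to 2 bases and below it from 3 to 11 bases. These values were not tested.

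**Figure D4:**
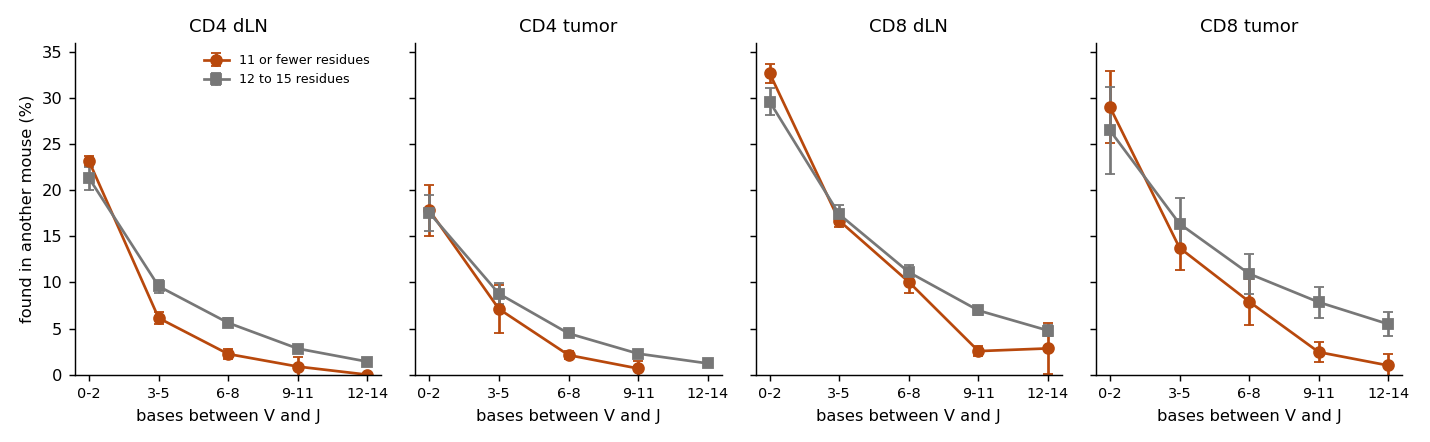
Share of clones found in another mouse of the same group (%) against the number of bases between V and J, for clones of 11 or fewer residues (circles) and of 12 to 15 residues (squares), as means with SD of 4 mice, where every mouse had at least 20 clones. The classes lie close together at 0 to 2 bases (32.7% and 29.6% in the CD8 dLN) and short clones lie lower at 9 to 11 bases.

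The J segments of short clones differed from those of the longer ones. The J segment supplies the end of the CDR3, and its germline length up to the phenylalanine codon differs between segments. The 39 V and J names in the files all matched segments of the beta chain locus on chromosome 6 in the GENCODE annotation of GRCm38. Of the 5 J segments below, TRBJ2-7, TRBJ1-1 and TRBJ1-2 have the fewest such bases and TRBJ1-6 the most, and TRBJ2-2 is shown as an example with many. Capitals are used for the part that can enter the CDR3, up to and including the phenylalanine codon. They are the germline transcripts of GENCODE M21, plus strand.
TRBJ2-7, chr6:41543810-41543856: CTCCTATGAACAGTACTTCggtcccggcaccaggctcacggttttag
TRBJ1-1, chr6:41533864-41533911: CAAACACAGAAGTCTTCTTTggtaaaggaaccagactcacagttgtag
TRBJ1-2, chr6:41534001-41534048: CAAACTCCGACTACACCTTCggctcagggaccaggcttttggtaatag
TRBJ2-2, chr6:41542957-41543007: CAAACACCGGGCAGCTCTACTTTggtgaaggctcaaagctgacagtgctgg
TRBJ1-6, chr6:41535554-41535606: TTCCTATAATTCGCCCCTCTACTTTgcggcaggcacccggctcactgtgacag

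TRBJ2-7 was used by 46.2%, 42.4%, 44.4% and 44.0% of short CD8 tumor clones in mice 5 to 8, and by 22.9%, 23.5%, 23.6% and 23.8% of those with 12 to 15 residues. In the CD8 dLN it was 43.2% ± 1.6 against 22.2% ± 0.2, in CD4 dLN 36.1% ± 2.2 against 19.1% ± 0.3, and in CD4 tumors 38.8% ± 1.0 against 20.1% ± 0.4. No mouse of the short class overlapped with the other class in any group. TRBJ1-1 was used by 18.6% ± 0.4 of short and 9.74% ± 0.14 of longer CD8 tumor clones, and by 19.3% ± 1.1 and 10.2% ± 0.1 in the CD8 dLN. In CD4 dLN it was 16.3% ± 1.7 and 10.1% ± 0.1.

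After adjustment over all V and J segments by Benjamini-Hochberg, exact permutation tests called 29 of 36 segments (80.6%) in CD8 tumors, 31 of 37 (83.8%) in CD8 dLN and 23 of 37 (62.2%) in CD4 dLN. In CD4 tumors they called 0 of 36 (0%), although 20 of 36 (55.6%) had exact p = 0.0286 before adjustment, TRBJ2-7 and TRBJ1-1 among them, since their adjusted p was 0.0514. With every library at the smallest drawn depth the count in CD4 dLN was 0 as well, and with a limit of 10 residues that in CD4 tumors was 23. So many segments differed that a called segment is ordinary here, and the sizes carry the description. By adjusted p, 12 segments (33.3%) were higher and 17 (47.2%) lower among short clones in CD8 tumors, 12 (32.4%) and 19 (51.4%) in CD8 dLN, and 9 (24.3%) and 14 (37.8%) in CD4 dLN.

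Of the 12 J segments measured in all groups, only TRBJ2-7 and TRBJ1-1 had a higher mean among short clones in all 4 groups, and 9 had a lower one. TRBJ2-7 supplies 19 germline bases up to the phenylalanine and TRBJ1-1 20. TRBJ1-2 also supplies 20 and was lower (0.61 to 0.68 times its share of longer clones). TRBJ2-5, with 21, was lower in CD8 (0.63 and 0.66 times) and slightly higher in CD4 (1.03 and 1.21 times). TRBJ2-2, with 23 bases, had 0.21 to 0.36 times its share of longer clones, and TRBJ1-6, with 25, had 0.26 to 0.33 times. TRBJ2-3 fell from 7.35% ± 0.21 to 2.45% ± 0.29 of CD8 dLN clones, and TRBJ2-1 from 14.5% ± 0.2 to 8.73% ± 0.47 of CD8 tumor clones (exact permutation tests with adjusted p = 0.0341 and 0.0355). In CD4 dLN TRBJ1-3 fell from 5.89% ± 0.13 to 2.29% ± 0.29. Seen from the segment, 10.8% ± 0.4 of all TRBJ2-7 clones of the CD8 dLN were short, against 1.62% ± 0.05 of TRBJ1-6 clones.

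**Figure D5:**
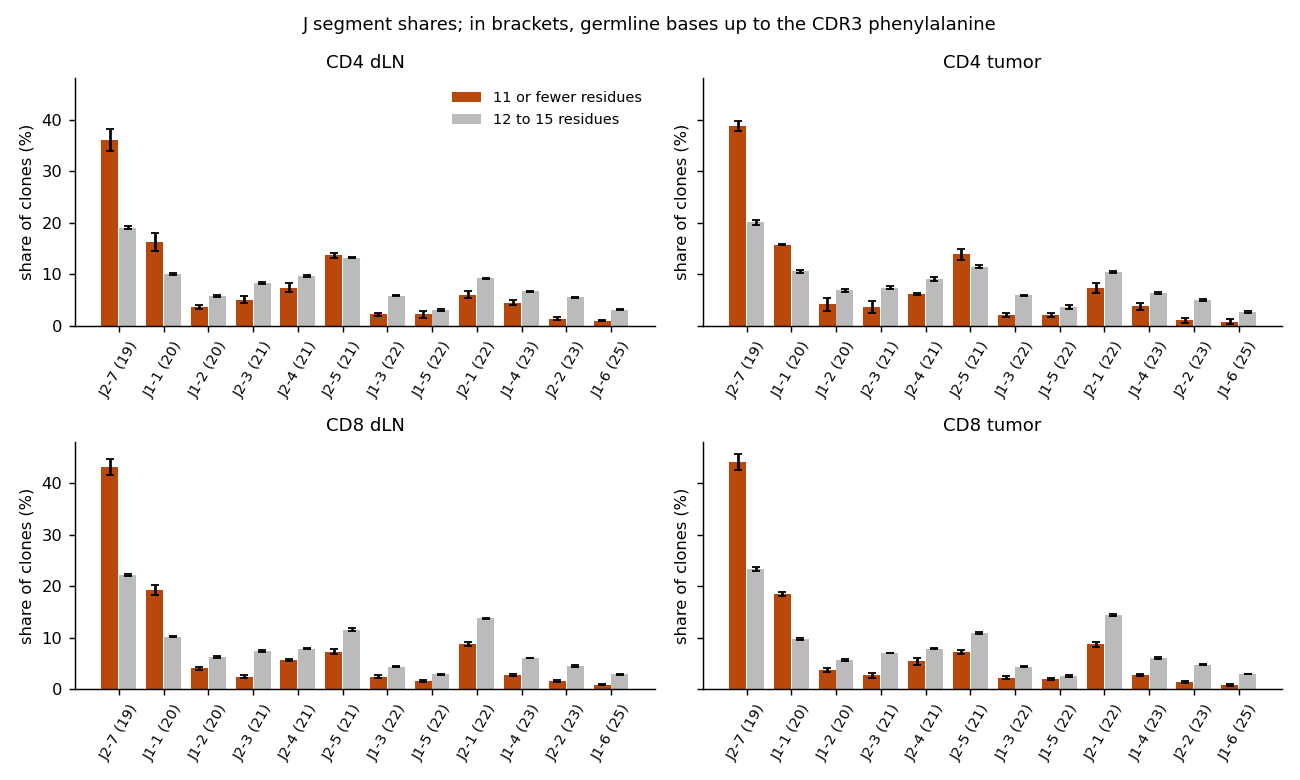
Share of distinct clones that use each J segment (%), for clones of 11 or fewer residues and of 12 to 15 residues, in the 4 groups, as bars with SD of 4 mice, ordered by germline bases up to the phenylalanine codon (in brackets). TRBJ2-7 (19 bases) and TRBJ1-1 (20 bases) are higher among short clones in each group, and TRBJ2-2 and TRBJ1-6 are lower.

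The sharing between mice differed by J segment too. Among TRBJ2-7 clones, 20.3% ± 1.2 of short and 9.49% ± 0.81 of longer CD8 dLN clones were found in another mouse, and in CD4 tumors 9.62% ± 1.88 and 3.45% ± 0.55. Among TRBJ1-1 clones the CD8 dLN gave 14.1% ± 2.0 and 8.98% ± 0.45, whereas CD4 tumors gave 5.29% ± 1.52 and 5.02% ± 0.40, which overlapped. Short clones were not shared more in every J segment. Among TRBJ1-5 clones the CD8 dLN gave 1.69% ± 1.43 for short and 5.62% ± 0.84 for longer clones, without overlap. Short TRBJ1-3 clones of the CD4 dLN were also shared less than longer ones, without overlap. These values were not tested.

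Among V segments TRBV20, which encodes CGAR in place of CASS at the start of the CDR3, was higher among short clones in all 4 groups. The germline ends of TRBV20 and of TRBV30, the latter named after its values were seen, are shorter, with 14 bases, than that of a V segment such as TRBV26, with 17. Share did not follow the length of the germline end throughout. TRBV12-1 and TRBV12-2, with 15 bases, were lower among short clones in CD8 (0.57 to 0.80 times their share of longer clones), and TRBV26 was itself higher in 3 of 4 group means. TRBV20, TRBV30 and TRBV26 are given from the cysteine codon to the end of the annotated V segment, in capitals since all of it can enter the CDR3.
TRBV20, chr6:41188273-41188977: TGTGGTGCTAGGGA
TRBV30, chr6:41281376-41281990: TGTAGTTCTAGAGA
TRBV26, chr6:41227505-41227993: TGTGCCAGCAGTCTGTC

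TRBV20 was used by 5.80%, 5.77%, 5.17% and 5.12% of short CD8 tumor clones in mice 5 to 8 and by 1.88%, 1.92%, 1.83% and 1.88% of longer ones. It rose likewise in the CD8 dLN, from 1.999% ± 0.005 to 4.92% ± 0.33, and in the CD4 dLN, from 4.51% ± 0.17 to 7.41% ± 0.68, and in CD4 tumors the means were 4.07% and 6.72%. TRBV30 was rare, at 0.81% to 0.93% of short clones in the CD4 dLN, CD8 dLN and CD8 tumor means, and in the 4 groups stood at 1.99 to 3.66 times its share of longer clones. TRBV29 rose from 4.95% ± 0.15 to 7.81% ± 0.36 in CD8 tumors and from 5.99% ± 0.03 to 8.73% ± 0.53 in CD8 dLN. In CD4 tumors it was 6.69% ± 0.91 of longer and 5.90% ± 0.99 of short clones, lower in 4 of 4 mice but not called, and in CD4 dLN 1.93% ± 0.06 and 2.01% ± 0.38. TRBV13-2 rose in CD8 tumors (8.19% ± 0.17 to 10.9% ± 0.7) and CD4 dLN (11.003% ± 0.219 to 13.5% ± 1.1). TRBV13-3 rose in CD8 dLN (6.75% ± 0.15 to 9.50% ± 0.35) but fell in CD4 dLN (6.14% ± 0.22 to 4.87% ± 1.12), a value added after it was seen. TRBV26 rose in CD4 dLN from 4.89% ± 0.23 to 6.50% ± 0.92.

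TRBV3 fell from 7.69% ± 0.13 to 3.79% ± 0.14 in CD8 tumors and from 7.10% ± 0.07 to 2.92% ± 0.40 in CD8 dLN, and less in CD4 dLN, from 10.2% ± 0.3 to 8.50% ± 1.09. TRBV5 fell most in CD4 dLN, from 7.90% ± 0.18 to 2.58% ± 0.99, and TRBV2 there from 3.84% ± 0.04 to 1.94% ± 0.20. TRBV12-1 fell in CD8 tumors from 8.53% ± 0.17 to 5.10% ± 0.57 and in CD8 dLN from 7.61% ± 0.51 to 4.32% ± 0.46. TRBV12-2 fell in CD8 tumors from 12.2% ± 0.1 to 9.25% ± 0.51, and TRBV1 in CD8 dLN from 5.47% ± 0.27 to 2.92% ± 0.14. Of 24 V segments with a value in all groups, 7 had a higher mean among short clones in all 4 groups, 5 a lower one, and 12 differed in direction between groups.

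The most frequent pair of segments among short clones was TRBV13-2 with TRBJ2-7 in each group. It made 7.86% ± 0.66 of short CD4 tumor clones against 3.65% ± 0.26 of longer ones, and 4.86% ± 0.34 against 1.91% ± 0.06 in the CD8 dLN. TRBV29 with TRBJ2-7 made 3.34% ± 0.46 of short CD8 tumor clones and 0.840% ± 0.073 of longer ones. By reads, TRBJ2-7 took from 25.4% to 86.3% of short reads in the CD8 tumors of the 4 mice and 43.3% to 46.2% in the CD8 dLN. Single clones held much of these reads. CSSSQSGGS, with 1 CDR3 base assigned to TRBJ2-7, held 65.1% of the short reads in mouse 5, and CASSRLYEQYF held 43.1% in mouse 8.

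Between groups, the segments of short clones differed between CD4 dLN and CD8 dLN, where 24 of 36 (66.7%) were called, 15 (41.7%) higher and 9 (25%) lower in CD4. With a limit of 10 residues 0 were called. TRBV29 was used by 1.69%, 2.20%, 1.71% and 2.45% of short CD4 dLN clones in mice 5 to 8 and by 9.34%, 8.27%, 8.30% and 9.02% of short CD8 dLN clones, while among longer clones its means were 1.93% and 5.99%. TRBV3 was used by 8.50% ± 1.09 and 2.92% ± 0.40, with 10.2% and 7.10% among longer clones. TRBJ2-5 was used by 13.7% ± 0.5 and 7.33% ± 0.49, with 13.3% and 11.6% among longer clones. TRBJ2-7 was used by 36.1% ± 2.2 and 43.2% ± 1.6, with 19.1% and 22.2% among longer clones. These 4 segments had the largest differences in share and were chosen after their values were seen. Between CD4 and CD8 tumors exact tests called 0 of 36 (0%) after adjustment and 18 (50%) before it, between CD8 tumor and CD8 dLN 0 and 12 (33.3%), and between CD4 tumor and CD4 dLN 0 and 10 (27.8%). Another random draw called 21 between the tumors, so that this count rests on the draw.

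The residues inside the loop differed as well. Shares were taken over the residues after the first 4 and before the last 4 of each distinct CDR3, of which a short clone has few. Exact permutation tests with Benjamini-Hochberg adjustment over 20 residues called 18 (90%) in CD8 tumors, 14 (70%) in CD8 dLN, 15 (75%) in CD4 dLN and 12 (60%) in CD4 tumors. Higher among short clones were 12 (60%), 8 (40%), 8 (40%) and 6 (30%) of them in that order, and lower 6 (30%), 6 (30%), 7 (35%) and 6 (30%). These counts were not stable. The count was 0 in CD4 tumors with another random draw, with a limit of 10 residues and against a class of 13 to 14 residues, 0 in CD8 tumors with the limit of 10 residues, and 0 in CD8 dLN with a minimum of 6 reads. Tyrosine, an aromatic residue that TRBJ2-7 encodes, rose from 5.75% ± 0.08 to 8.88% ± 0.18 in CD8 tumors, from 5.23% ± 0.04 to 8.33% ± 0.32 in CD8 dLN, from 4.29% ± 0.09 to 7.38% ± 0.78 in CD4 dLN and from 4.56% ± 0.09 to 7.94% ± 0.41 in CD4 tumors. Aspartate, which is acidic, rose from 9.24% ± 0.07 to 13.99% ± 0.58 in CD4 tumors and less in CD8 tumors, from 8.56% ± 0.08 to 10.3% ± 0.3. Leucine rose in all groups and was called in those other than CD8 dLN. There it was higher in 4 of 4 mice, with means of 6.20% ± 0.08 and 6.59% ± 0.26, but not called (adjusted p = 0.0762, exact test).

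Glycine, which the D segments encode in each forward reading frame, fell from 22.1% ± 0.1 to 14.97% ± 0.31 in CD4 dLN and from 21.8% ± 0.1 to 15.7% ± 0.6 in CD4 tumors. In CD8 it fell less, from 21.5% ± 0.1 to 19.4% ± 0.03 in dLN and from 21.1% ± 0.04 to 19.2% ± 0.6 in tumors. Asparagine fell by 1.90 to 2.65 percentage points and serine by 1.04 to 1.92 in the 4 groups. Since these windows take in different parts of the J segment at different lengths, residue and J segment differences are not independent of each other. A D segment was also called in fewer short than longer clones, as given above, so the fall of glycine is not independent of the length rule.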

How the data were processed

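T cell receptor beta chain libraries were sequenced from sorted T cells of 4 mice. The authors trimmed reads with cutadapt 3.2, named in the submitters' notes, and their methods name PRINSEQ for filtering, MiXCR for alignment to reference V, D and J segments and for assembly of productive clones with correction of PCR errors, and VDJtools. The deposited count is the number of reads of a clone, the deposited fraction (freq) is its part of the library's reads, and per the file headers the V end, D start, D end and J start are positions in the CDR3. The counts carry no molecular identifiers, so reads are not molecules, and floors of 3 reads cover counting error only.

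As in the study, reads were drawn without replacement to 6 per sorted cell (seed 1), with the cell numbers of the study's library table as depth only. Clones, segments and residues were then computed per mouse from pooled libraries with Python 3.11.15, numpy 2.4.6 and pandas 2.3.3. Groups were compared by two-sided exact permutation tests over all 70 splits of 4 and 4 mice, with Benjamini-Hochberg adjustment over the 34 single values, over all segments of a comparison or over 20 residues. The tests were checked on simulated data. The replicate number is the animal, so samples are paired. The correlation over mice of the short share of clones between the compared groups ran from -0.90 to 0.65. Short and longer clones compared within a group came from the same mice, so the exact p there also reflects the spread between mice. With mouse as a block, 16 sign changes allow no p below 0.125, so blocked differences are values without a test.

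For each mouse and subset the largest short clone over both tumors and that over both dLNs were named, and for each subset the 5 short amino acid clones in the tumors of most mice, those with the highest mean read share first. Per group, 3 V and 2 J segments were named at either end of the called changes, and over groups 3 rising and 3 falling residues. The limit of 11 residues, the lists and the tests were chosen with earlier results of these data known. Alternatives were the deposited reads, equal depth, another seed, minima of 2 and 6 reads, removal of clones 100 times rarer than in another mouse, a limit of 10 residues, a class of 13 to 14 residues, means of single libraries, clones by amino acids and leaving out each mouse. Germline J and V ends and coordinates came from GENCODE M21 (GRCm38).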

Additional observations from a re-analysis of the deposited data

Results flagged for a closer look

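Of 38 sets of 4 mouse values on short clones, 5 held a value far from the other 3 by Dixon's criterion, and chance gives about 1 in 20 such sets. These were the read share of CD4 tumor mouse 7 (13.5%), the share of short clones above 0.1% of reads in CD4 tumor mouse 5 (2.96%), the share of short nucleotide clones found in another mouse in CD4 dLN mouse 8 (9.17%, against 9.54% to 9.55% in the others), and, in CD8 tumor mouse 7, the overlap of both sides (76.8%) and the share of short tumor reads found in a dLN (67.5%).

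Differences were themselves compared between groups in 27 exact permutation tests, of which 9 had exact p = 0.0286 and an adjusted p of 0.0857. Of the 27, 2 compared tumor less dLN between CD4 and CD8, and the others, the 9 among them, compared short less longer clones between groups. The reads of a clone in every 1000000 differed by 30.5 more in CD4 tumor than in CD4 dLN (in CD4 tumor mouse 7 had 63.5, and without it the mean difference there was 19.1), and the share above 0.1% by 0.0596 percentage points more in CD8 tumor than in CD8 dLN. For amino acid clones shared with another mouse, the difference in CD8 tumor less that in CD8 dLN was -2.50 points and that in CD4 dLN less that in CD8 dLN -2.12 points. For nucleotide clones these were -2.70 and -2.98 points. For nucleotide sequences per amino acid clone, CD8 tumor less CD8 dLN was -0.0204. For overlap of both sides, CD4 tumor less CD4 dLN was 8.77 points and CD4 dLN less CD8 dLN -10.9 points. CD8 dLN mice all had more overlap for short clones, whereas 3 of 4 CD4 dLN mice had less.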

How the results depend on the processing

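Of 330 single values recomputed with a test, 301 kept their direction and their side of exact p = 0.05. The limit of 10 residues moved most. There the share of clones gave -0.0884 for CD8 tumor less dLN, -0.13 for CD4 less CD8 tumor and -0.22 for CD4 less CD8 dLN, and the share of reads 3.19 for CD8 tumor less dLN, -0.16 for CD4 tumor less dLN and -3.74 for CD4 less CD8 tumor (percentage points). Short less longer clones then gave -12.59 reads in every 1000000 in CD4 tumor, -0.58, 0.34 and -0.00672 points above 0.1% in CD4 tumor, CD8 tumor and CD8 dLN, 1.35, 0.45, -0.31 and 1.66 points of amino acid sharing in CD4 tumor, CD4 dLN, CD8 tumor and CD8 dLN, and -0.00740, -0.00656, -0.0206 and -0.00292 nucleotide sequences per clone in that order. CD4 tumor overlap of both sides was -5.72 and with dLN -7.896 points. The called segments were 23 in CD4 tumor and 0 between CD4 and CD8 dLN, and the called residues 0 in CD4 tumor and CD8 tumor.

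Sharing of nucleotide clones stayed higher for short clones with exact p = 0.0286 in CD4 tumor, CD4 dLN and CD8 dLN under each of 9 alternatives with a test, among them the limit of 10 residues. Equal depth gave a difference of 4.57 points in CD8 tumor (exact p = 0.0286) and 0 called segments in CD4 dLN, another seed 21 called segments between CD4 and CD8 tumors and 0 residues in CD4 tumor, and a minimum of 6 reads 0.0108 sequences per clone in CD4 tumor and 0 residues in CD8 dLN. The class of 13 to 14 residues gave 0.16 reads in every 1000000 in CD4 dLN, 4.70 points of amino acid sharing in CD4 tumor, -0.00117 sequences per clone in CD8 tumor and 0 residues in CD4 tumor. With 4 mice per group, adjusted p values of all segments lie near the threshold together, which limits these counts. Without the largest short clone, chosen after seeing the data, read shares differed by -0.99 points in CD8 and 1.48 in CD4. The limit of 10 residues without the largest such clone, also chosen after seeing the data, gave -0.19 points for CD4 tumor less dLN and -1.28 for CD4 less CD8 tumor. With a mouse left out, 3 mice against 3 allow no p below 0.1, so only values are given. The CD4 tumor less dLN read share ran from 1.57, without mouse 7, to 3.94 points, and 3 of the 34 results changed sign. The CD4 less CD8 tumor read share was 0.34 points and ran from -2.32, without mouse 7, to 1.63. The CD4 dLN short less longer reads per clone were -0.35 in every 1000000 and ran from -1.72 to 0.54, without mouse 6, with 0.0860 without mouse 8, and the CD4 dLN share above 0.1% was -0.0331 points and ran from -0.0590 to 0.0191, without mouse 8. With mouse as a replicate block, the CD8 tumor less dLN share of clones was -0.77 points and the CD4 read share 3.24 points, the block changed no direction, and 0.125 is the smallest exact p it allows.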
